A study of Mus musculus with 4 samples.

Results

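The cytosolic ribosomal protein genes are the 77 genes whose symbols name a protein of the large subunit (Rpl, Rplp0, Rplp1 and Rplp2; 46 genes) or of the small subunit (Rps and Rpsa; 31 genes) of the cytosolic ribosome. They were chosen by their symbol alone, out of 27933 genes in the deposited count tables, and symbols of pseudogenes and of ribosomal protein kinases were left out by the same rule. Fau and the gene for RACK1 also encode parts of the ribosome but carry other symbols, and they are described apart from the 77. The 77 genes were counted in 4 RNA-seq libraries from melanocyte stem cells, which replenish the pigment cells of hair, sorted by flow cytometry from mouse skin. In 2 stressed libraries the treatment was RTX, the abbreviation of resiniferatoxin, an agonist of the pain fibre channel TRPV1, and in 2 control libraries it was saline. Cells were harvested 12 h after injection, RNA was extracted from the sorted cells, and cDNA was made with the Smart-Seq V4 kit. Strain, age and sex are not given in the labels, and no transgene or other allele is named for either group. The title of the series concerns the loss of these stem cells under strong sympathetic nerve activity, and the comparison asks which transcripts differ between stressed and control cells. The labels do not say whether the 2 libraries of a group came from separate animals, so p-values measure the spread between libraries, which may be technical.

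Ribosomal proteins assemble with ribosomal RNA in the nucleolus and then in the cytoplasm, and each mature ribosome carries a single copy of nearly all of them, the acidic stalk proteins being the exception. Their mRNAs are abundant, short and stable, and most begin with an oligopyrimidine tract that lets mTOR signalling, through the RNA-binding protein LARP1, turn their translation up or down without a change in the amount of mRNA. In mice, mutations of Rps19 or Rps20 darken the skin through p53 and Kit ligand in keratinocytes, which is one known link between ribosomal proteins and pigment cells.

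The 4 libraries held 10625688 and 11104039 counts in stressed cells and 9273652 and 11854280 counts in control cells, with 16071 to 16201 genes detected in each. The sorted cells carried pigment cell RNA, since the 8 melanocyte markers had mean levels of 401 to 12660 CPM (counts scaled by TMM to a common library total). Their summed level was 38760 and 36280 CPM in stressed libraries against 21760 and 20620 CPM in control libraries. Keratinocyte markers, 12 genes that were all detected, summed to 10050 and 8725 CPM in stressed libraries against 26860 and 16290 CPM in control libraries. The 13 mitochondrially encoded mRNAs summed to 4780 and 4091 CPM in stressed libraries against 8999 and 20750 CPM in control libraries, while mt-Co2, mt-Co3, mt-Atp6 and mt-Atp8 were at 0 in all 4. In such bulk RNA, fewer cells of a type and less RNA per cell cannot be told apart.

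The start sites are shown first because the pyrimidine tract at the first transcribed base is what sets these mRNAs apart as a class. RefSeq promoter sequences (GRCm38.p6, 250 bases before to 50 after the annotated start) were matched by symbol to 57 of the 77 genes, with 67 entries. Within 30 bases of the start, 32 of 57 genes (56.1%) had an unbroken run of at least 8 C or T on the transcribed strand, against 25.8% of the 27025 genes in the table. The sequence CCGGAAG, a core recognised by ETS-family factors, stood on either strand in 24 of 57 genes (42.1%), against 9.93% of all genes, and 17 of the 24 also had the pyrimidine run. The palindrome CTCGCGAG stood in 7 (12.3%), against 1.04% of all genes. TATAAA on either strand was found in 6 (10.5%), against 15.7%, and AAGATGGC on either strand in 5 (8.77%), against 3.19%. The windows printed here run 5′ to 3′ on the gene's strand from 40 bases before to 20 bases from the start onward, so the first transcribed base is the 41st letter. Capitals mark runs of at least 8 C or T that reach within 30 bases of the start, CCGGAAG or its complement CTTCCGG, and CTCGCGAG; a run and CTTCCGG can overlap. Rpl4 and Rplp2 are shown for their abundance and stalk role, Rps6 as the S6 kinase target, Rpl38 and Rps19 for their known developmental roles, and Rpl34, Rpl27, Rpl6 and Rpl22 because their fold changes were among the highest and lowest.
Rpl4, chr9:64173347-64173406, plus strand: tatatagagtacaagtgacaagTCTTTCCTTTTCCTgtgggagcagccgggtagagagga
Rplp2, chr7:141447611-141447670, plus strand: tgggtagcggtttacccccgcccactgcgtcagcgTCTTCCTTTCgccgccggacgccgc
Rps6, chr4:86857348-86857407, minus strand: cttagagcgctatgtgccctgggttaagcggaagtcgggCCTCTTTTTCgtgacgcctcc
Rpl38, chr11:114668540-114668599, plus strand: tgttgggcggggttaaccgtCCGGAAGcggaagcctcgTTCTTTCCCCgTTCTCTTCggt
Rps19, chr7:24884552-24884611, plus strand: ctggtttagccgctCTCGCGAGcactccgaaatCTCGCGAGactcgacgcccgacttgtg
Rpl34, upstream start, chr3:130730379-130730438, minus strand: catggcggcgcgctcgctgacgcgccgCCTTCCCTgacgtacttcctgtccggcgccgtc
Rpl34, downstream start, chr3:130730318-130730377, minus strand: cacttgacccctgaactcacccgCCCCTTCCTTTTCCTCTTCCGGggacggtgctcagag
Rpl27, chr11:101442205-101442264, plus strand: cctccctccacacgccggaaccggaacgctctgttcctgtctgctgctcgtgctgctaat
Rpl6, chr5:121204461-121204520, plus strand: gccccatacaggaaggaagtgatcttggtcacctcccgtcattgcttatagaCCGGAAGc
Rpl22, chr4:152325686-152325745, plus strand: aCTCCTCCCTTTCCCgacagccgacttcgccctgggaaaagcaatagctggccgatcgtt
The run spanned the annotated start in Rplp2, Rps6, Rpl38 and the downstream start of Rpl34, and it ended before the start in Rpl4, the upstream start of Rpl34 and Rpl22. In the printed windows, Rpl27, Rpl6 and this start of Rps19 had none that reached within 30 bases of the start. Bases further downstream are not printed. Annotated starts may differ from those used in these cells.

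As a whole, the ribosomal protein mRNAs of stressed libraries lay between those of the 2 control libraries. They held 0.955% and 0.889% of all counts in stressed libraries, against 1.02% and 0.723% in control libraries. Summed over the 77 genes, the level was 9527 and 8979 CPM in stressed libraries against 10170 and 7261 CPM in control libraries, or 9253 ± 387 CPM against 8713 ± 2054 CPM (SD, n = 2 each). Both stressed libraries thus lay between the 2 controls, which were 0.49 log2 units apart, while the group means differed by 0.09 log2 units. The large subunit genes summed to 5925 and 5653 CPM in stressed libraries against 6312 and 4557 CPM in control libraries. The small subunit genes summed to 3602 and 3326 CPM in stressed libraries against 3853 and 2704 CPM in control libraries. The ratio of the large subunit sum to the small subunit sum was 1.65 and 1.70 in stressed libraries against 1.64 and 1.69 in control libraries, so the subunits moved together between libraries. Counted per kilobase of exon and scaled like TPM, the 77 genes held 23470 and 22350 in stressed libraries against 23900 and 17280 in control libraries, which keeps the same order.

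**Figure D1:**
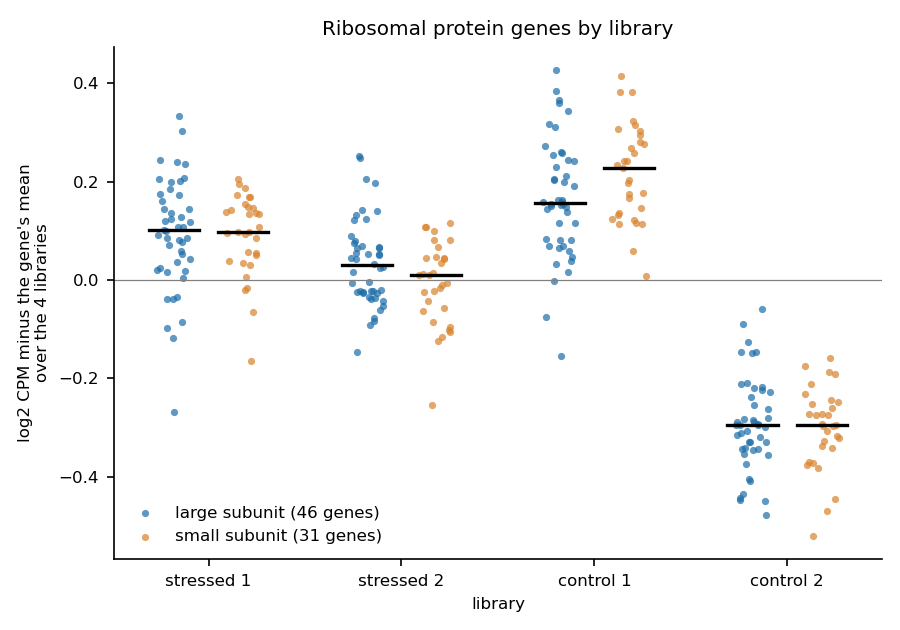
Each point is 1 ribosomal protein gene in 1 library, plotted as its log2 CPM minus its mean over the 4 libraries, with large subunit genes (46) and small subunit genes (31) side by side and a bar at each median. The medians of control replicate 2 lie lowest, those of control replicate 1 highest, and those of the stressed libraries between them.

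No ribosomal protein gene was called in stressed against control cells. All 77 passed the low-count filter, with 82 to 8377 counts per gene and library, and edgeR's quasi-likelihood test with Benjamini-Hochberg adjustment over 13348 genes called 0 of them, with a background of 0% of all genes. The smallest adjusted p among them was 0.32 in edgeR, for Rpl34. DESeq2 called 0 of the 77, where it called 4.4% of all genes tested (1.73% higher, 2.67% lower), and limma-voom called 0 of the 77 and 0% of all genes. At an unadjusted p below 0.05, each of the 3 tools had 1 ribosomal protein gene, Rpl34, on the higher side and 0 on the lower side. Over all genes edgeR had 12.8% (5.17% higher, 7.6% lower), DESeq2 13.3% (5.62% higher, 7.7% lower) and limma-voom 12.7% (5.6% higher, 7.14% lower).

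The fold changes were small and narrowly spread. The median log2 fold change, stressed over control in the edgeR fit, was 0.10 over the 77 genes, with quartiles of 0.0047 and 0.16 and extremes of -0.31 and 0.49, beside a median of -0.0091 over all genes tested. Their SD was 0.14 log2 units, against 0.75 over all genes. The 77 genes were more abundant, with a median mean level of 82.5 CPM and a minimum of 9.56 CPM. Over all genes tested these were 34.4 and 0.491 CPM. Values over all genes are thus not matched for abundance, and the narrower spread cannot be read as particular to ribosomal protein genes. By value, 59 genes were higher and 18 lower in stressed cells, where 49.1% of all genes were higher. The median was 0.11 for the large subunit, with 37 of 46 genes higher by value, and 0.05 for the small subunit, with 22 of 31 higher by value. The 95% interval of the fold change stayed within 1 log2 unit in either direction for 76 of the 77 genes, against 49.6% of all genes tested. The exception was Rpl23a, which had the fewest counts, with an interval of -0.51 to 1.29. These intervals assume that 2 libraries a group describe the spread, and they do not show that the levels are equal.

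**Figure D2:**
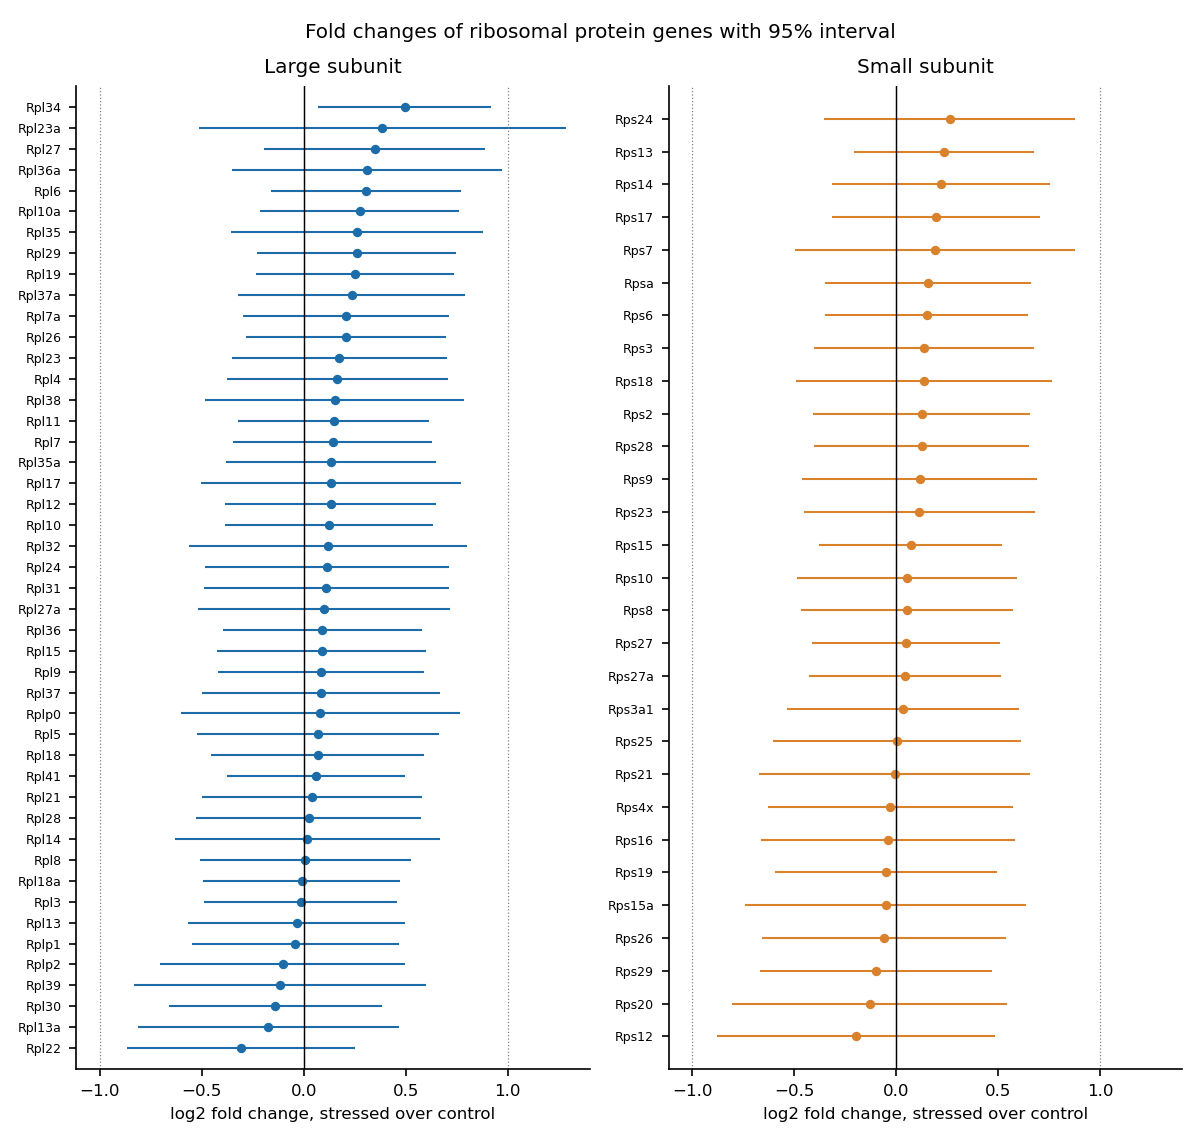
Log2 fold changes of ribosomal protein genes, stressed over control, with their 95% intervals from the edgeR fit, for the large subunit (left) and the small subunit (right), with dotted lines at 1 log2 unit either way. Only the interval of Rpl34 excludes 0 and only that of Rpl23a passes 1.

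The direction of this small shift depended on which control library it was set against. Control replicate 1 was above control replicate 2 in 76 of the 77 genes (98.7%), where this held for 49.7% of all genes tested, and the exception was Rpl35a. The median difference between the controls was 0.47 log2 units over the 77 genes, with a range of -0.02 to 0.80, against -0.0031 over all genes. Between the stressed libraries, replicate 1 was above replicate 2 in 55 of 77, with a median of 0.08 and a range of -0.25 to 0.40. The difference between the controls was thus larger than the 0.10 between stressed and control cells. Summed as above, keratinocyte markers were also higher in control replicate 1 than in control replicate 2, and mitochondrial mRNAs lower. Gene by gene, 9 of the 12 keratinocyte markers were higher in control replicate 1. The part of either set in the ribosomal protein levels was not tested. Without control replicate 1, 76 of the 77 genes were higher in stressed cells by value (all genes, 51.6%), the median was 0.37, and 15 had an unadjusted edgeR p below 0.05, all on the higher side (all genes, 17.2% in either direction and 8.75% higher). Without control replicate 2, 16 of the 77 were higher by value (all genes, 51.2%), the median was -0.13, and 1 had an unadjusted p below 0.05, on the lower side (all genes, 20.8% in either direction and 10.1% higher). Neither comparison called any of the 77 in edgeR or DESeq2 after adjustment, although edgeR then called 4.52% and 5.34% of all genes tested.

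Placed by value, both stressed libraries fell between the 2 controls in 49 of the 77 genes (63.6%), where 18.9% of all genes tested did. They lay above both controls in 10 genes (13%), against 21.8% of all genes. In 0 of the 77 did they lie below both controls, against 22.9% of all genes. The 10 were Rpl34, Rpl23a, Rpl27, Rpl6, Rpl10a, Rpl35, Rpl29, Rpl19 and Rpl35a of the large subunit and Rps13 of the small subunit. The remaining 18 interleaved with the controls. Across the 77 genes, which are not independent replicates, Pearson's r of log2 CPM was 0.983 to 0.992 between any 2 libraries. Their mean levels ran from 9.56 to 721 CPM. A range this wide brings r near 1 by itself, so r does not show how stable the relative levels were.

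Rpl34 (chr3:130726831-130730398, mm10, minus strand), a large subunit protein, had the largest fold change. Its level was 94.0 and 94.5 CPM in stressed libraries against 71.2 and 62.6 CPM in control libraries, so the groups did not overlap. The mean was 94.2 ± 0.36 CPM in stressed cells and 66.9 ± 6.10 CPM in control cells (SD, n = 2 each), a log2 fold change of 0.49 ± 0.18. (SE) It was not called by edgeR (unadjusted p = 0.028, adjusted p = 0.32) or by DESeq2 (adjusted p = 0.31). Its controls were 0.19 log2 units apart, and of the other 76 genes only Rpl35a had closer controls. Leaving out control replicate 1 gave it a fold change of 0.60 and leaving out control replicate 2 gave 0.41.

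After Rpl34 came Rpl23a, at 0.39 ± 0.37 (SE) on the log2 scale but with a mean level under 10 CPM, followed by Rpl27, Rpl36a, Rpl6 and Rpl10a. Rpl27 (chr11:101442298-101445529, plus strand), a large subunit protein, was at 46.7 and 51.5 CPM in stressed libraries against 43.3 and 33.9 CPM in control libraries, a log2 fold change of 0.35 ± 0.23. (SE) Rpl6 (chr5:121204481-121209241, plus strand), a large subunit protein, was at 127 and 134 CPM in stressed libraries against 118 and 92.9 CPM in control libraries, or 0.30 ± 0.19 (SE) on the log2 scale. Rpl10a, the protein of the mobile L1 stalk through which spent tRNA leaves, was at 80.8 and 70.8 CPM in stressed libraries against 70.2 and 55.3 CPM in control libraries. In these 3 genes control replicate 1 lay under the lower stressed library, and none was called. Rpl36a, an X-linked large subunit gene, was at 45.3 and 37.4 CPM in stressed libraries against 39.9 and 27.0 CPM in control libraries, and its groups overlapped. Leaving out control replicate 2 brought the fold changes of Rpl27, Rpl6, Rpl10a and Rpl36a to 0.18, 0.145, 0.115 and 0.056, and leaving out control replicate 1 to 0.55, 0.50, 0.47 and 0.63.

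On the lower side no gene separated the groups. Rpl22 (chr4:152325742-152334071, plus strand), a large subunit protein that cells can live without and that T-cell development in mice needs, was at 49.3 and 58.4 CPM in stressed libraries against 77.5 and 55.8 CPM in control libraries. Its log2 fold change was -0.31 ± 0.23 (SE), to which edgeR gave an adjusted p of 0.65, and 1 stressed library exceeded control replicate 2. The fold change was -0.04 when control replicate 1 was left out and -0.52 when control replicate 2 was. Rpl22l1, its paralog, whose mRNA the Rpl22 protein restrains in mice, was at 28.0 and 19.1 CPM in stressed libraries against 27.3 and 34.9 CPM in control libraries, also without a call. Rps12, a small subunit head protein, was at 35.0 and 34.3 CPM in stressed libraries against 48.9 and 30.8 CPM in control libraries. Rpl13a, which in human monocytes leaves the ribosome to silence inflammatory mRNAs, was at 133 and 118 CPM in stressed libraries against 176 and 107 CPM in control libraries. In both genes control replicate 1 was the highest library and control replicate 2 the lowest. Rpl30, which also binds selenocysteine signals in mRNAs, was at 46.4 and 47.7 CPM in stressed libraries against 58.6 and 45.1 CPM in control libraries. Rps20, on the head of the small subunit, was at 64.4 and 48.7 CPM in stressed libraries against 75.9 and 48.1 CPM in control libraries. In the last 4 genes both stressed libraries lay between the controls, and the log2 fold changes of -0.20, -0.17, -0.14 and -0.13 were each smaller than their SE of 0.22 to 0.28.

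The stalk of the large subunit, which recruits elongation factors, is built on Rplp0 with copies of Rplp1 and Rplp2. Rplp0 (chr5:115559467-115563727, plus strand), also used as a reference gene in quantitative PCR, was at 542 and 533 CPM in stressed libraries against 639 and 376 CPM in control libraries. The stressed libraries were within 0.02 log2 units of each other and the controls 0.76 apart. Rplp1 was at 97.0 and 94.9 CPM in stressed libraries against 115 and 83.0 CPM in control libraries, and Rplp2 at 69.3 and 75.5 CPM in stressed libraries against 95.02 and 60.7 CPM in control libraries. The log2 fold changes of the 3 stalk genes were 0.08, -0.04 and -0.10, with SEs of 0.21 to 0.28, and all 3 had the stressed libraries between the controls.

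Proteins of the catalytic core and the exit tunnel of the large subunit differed in where the stressed libraries lay. Rpl3, which reaches towards the peptidyl transferase centre, was at 316 and 307 CPM in stressed libraries against 348 and 282 CPM in control libraries. Rpl4 (chr9:64173387-64178562, plus strand), which lines the tunnel, was at 763 and 762 CPM in stressed libraries against 776 and 584 CPM in control libraries. Both genes thus had their 2 stressed libraries inside the span of the controls, with log2 fold changes of -0.01 and 0.17. Rpl10, which joins late and readies the subunit for translation, was at 149 and 132 CPM in stressed libraries against 148 and 110 CPM in control libraries. Rpl23a (chr11:78180932-78183584, minus strand), at the tunnel exit where signal recognition particle docks, was at 11.8 and 9.82 CPM in stressed libraries against 9.64 and 6.95 CPM in control libraries, the widest interval of all. Rpl38, needed in mice for the translation of Hox mRNAs, was at 33.3 and 39.5 CPM in stressed libraries against 38.1 and 27.5 CPM in control libraries. The groups overlapped in Rpl10 and Rpl38 and were apart by value in Rpl23a. Rpl41, the smallest ribosomal protein, was at 126 and 117 CPM in stressed libraries against 126 and 107 CPM in control libraries. Rpl35a, mutated in some patients with Diamond-Blackfan anaemia, was at 38.5 and 37.7 CPM in stressed libraries against 34.5 and 34.9 CPM in control libraries, and it was the only one of the 77 whose controls did not follow the common order.

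Rpl5 and Rpl11 form a particle with 5S rRNA that can also bind MDM2 and stabilise p53. Rpl5 was at 71.8 and 80.7 CPM in stressed libraries against 88.1 and 57.4 CPM in control libraries, and Rpl11 at 86.9 and 74.7 CPM in stressed libraries against 79.7 and 66.2 CPM in control libraries. The fold changes were 0.07 ± 0.25 and 0.15 ± 0.19 (SE) on the log2 scale, and neither was called.

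The small subunit genes of known regulatory or disease interest stayed within the control range or near it. Rps6 (chr4:86854660-86857412, minus strand), the phosphorylation target of S6 kinase, was at 137 and 121 CPM in stressed libraries against 132 and 100.4 CPM in control libraries. Rps19, the gene mutated most often in Diamond-Blackfan anaemia, was at 161 and 152 CPM in stressed libraries against 191 and 133 CPM in control libraries. Rps14, lost in human 5q- syndrome, was at 195 and 190 CPM in stressed libraries against 194 and 137 CPM in control libraries. The log2 fold changes of these 3 were 0.15, -0.05 and 0.22, with SEs of 0.21 to 0.22. Rps26, which contacts mRNA upstream of the start codon, was at 81.4 and 69.9 CPM in stressed libraries against 95.3 and 62.3 CPM in control libraries. Rps4x, on the X chromosome, was at 125 and 108 CPM in stressed libraries against 145 and 93.4 CPM in control libraries. Rps27a, made as a fusion with ubiquitin, was at 96.8 and 81.4 CPM in stressed libraries against 94.5 and 78.3 CPM in control libraries. In Rps26 and Rps4x the stressed libraries lay between the controls, and in Rps27a the higher stressed library passed control replicate 1.

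Other proteins of the small subunit gave like values. Rps2, at the mRNA entry channel, was at 166 and 175 CPM in stressed libraries against 183 and 130 CPM in control libraries, and Rps3, which also has a role in DNA repair, at 373 and 326 CPM in stressed libraries against 367 and 269 CPM in control libraries. Rpsa, which also serves as a laminin receptor, was at 146 and 153 CPM in stressed libraries against 155 and 114 CPM in control libraries. Their log2 fold changes of 0.12, 0.14 and 0.16 were smaller than their SEs of 0.21 to 0.22. Rps15a, a small subunit protein, was at 45.8 and 46.7 CPM in stressed libraries against 60.3 and 35.7 CPM in control libraries, so the stressed libraries agreed closely while the controls were 0.76 log2 units apart.

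**Figure D3:**
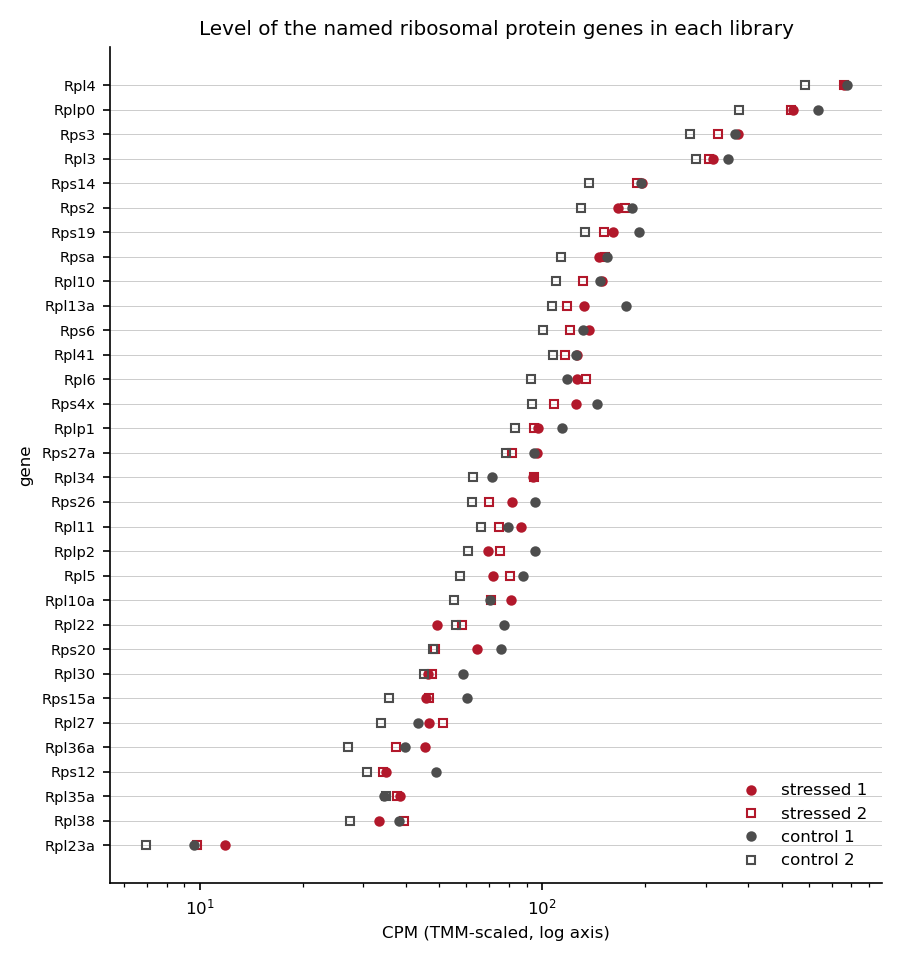
Level of 32 ribosomal protein genes in each library in TMM-scaled CPM on a log axis, with circles for replicate 1 and squares for replicate 2, red for stressed and grey for control. For many genes, such as Rplp0 and Rps19, the 2 red symbols lie between a grey circle on the right and a grey square on the left, and Rpl34 has both red symbols right of both grey ones.

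Although nearly all of the proteins are needed in equal amounts, their measured mRNA levels differed by much more than any difference between libraries. Per kilobase of exon length in the files, the mean over 4 libraries was highest for Rpl4 at 507 CPM per kb, with Rplp0 at 315 also in the top 3, and lowest for Rps15a at 7.51, Rpl35a at 10.3 and Rpl23a at 11.3, a 67.5-fold range. The median was 65.6 CPM per kb over the 77 genes, 48.1 for the large and 73.2 for the small subunit, against 7.94 over all genes tested, and 76 of the 77 stood above that last value. The exon length in the files, 404 to 6270 bp, joins all annotated exons of a gene and so includes rarely used ones, and it was negatively related to the level per kilobase across the 77 genes (Spearman's rho -0.61, which shares the length in both measures). Per kilobase of the principal GENCODE M21 transcript instead, Rpl4 at 469, Rplp0 at 385 and Rpl13 at 357 were highest, and Rps20 was lowest, followed by Rpl23a at 17.1 and Rpl35 at 32.1. The principal transcript of Rps20 is 3706 bases long, the longest of the 77, and its mean level before division by length was 59.3 CPM. By this length Rps15a and Rpl35a stood at 73.6 and 74.2 CPM per kb. The low end thus depended on the length used, while Rpl4 and Rplp0 stayed in the top 3 by either length. The 5 most abundant genes held 24.2% of the summed CPM.

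Sequence shared with other annotated genes limits how far each level can be read. Of the 50-base windows of a gene's principal transcript, a median of 57.4% also occurred in transcripts of another gene in GENCODE M21, with a range of 0% to 98.6%, the highest being Rps27, and 45 of the 77 genes were over 50%. Windows were matched on either strand. The other gene could be a copy elsewhere, a gene overlapping the same place, or an unrelated gene that holds the same stretch of sequence. These were not told apart, so the percentages are not a measure of copies alone. Rps16 shared windows with 89 genes, of which 6 were pseudogenes, and others were unrelated genes such as Brca2 and Foxo1. Annotated pseudogenes shared a window with 76 of the 77, a median of 9 pseudogenes per gene and 121 for Rpl7a. Only 16 rows of the files are named as ribosomal protein pseudogenes, and together they held 1.2 and 1.3 CPM in stressed libraries against 2.46 and 1.02 CPM in control libraries. Reads were counted at a minimum mapping quality of 30 on alignments that the file headers name unique. STAR, which is listed in the submitters' processing notes, scores reads with several equal alignments below that quality, so such reads would not be counted. The sources used here do not give the read length, and the counts of genes with many copies are uncertain. The level per kilobase of principal transcript had a median of 101 CPM for the 45 genes over 50% and 128 CPM for the other 32. The median log2 fold change was 0.12 for the 45 and 0.07 for the 32, and the median difference between the controls was 0.43 and 0.53 log2 units, so control replicate 1 was above control replicate 2 by median in both sets. Rps3 shared 2.96% of its windows, Rpl4 16.5%, Rpl34 37.9% and Rplp0 41.8%, while Rpl5 shared 93.8% and Rpl23a 85.7%.

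**Figure D4:**
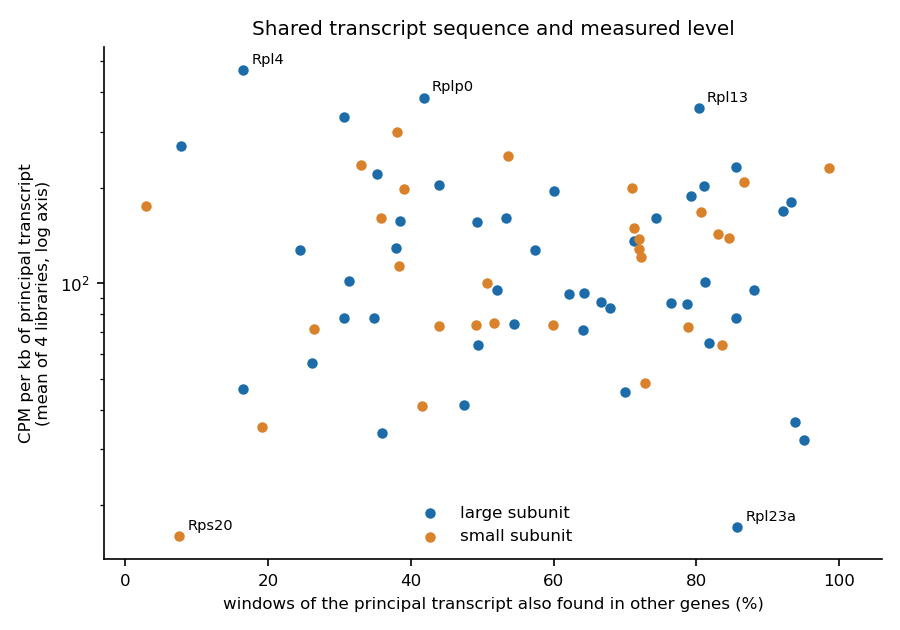
Each point is 1 ribosomal protein gene, with the percentage of 50-base windows of its principal transcript that also occur in other genes on the x axis and its mean level in CPM per kb of that transcript on a log y axis. Rpl4 with few shared windows and Rpl13 with many both stand near the top, and Rps20 and Rpl23a stand lowest.

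Genes on 19 chromosomes made up the set, 14 of them on chromosome 7 and 4 on X. The introns of 30 of the 77 genes, or other parts of their spans on the same strand, held 58 annotated small nucleolar RNA genes in GENCODE M21, with up to 5 in Rpl4; these guide the modification of ribosomal RNA and are cut from the spliced introns. The fold changes were also split by the pyrimidine run and by CCGGAAG. The median log2 fold change was 0.11 for the 32 genes with the pyrimidine run and 0.11 for the 25 without, and the stressed libraries lay between the controls in 21 of 32 and in 14 of 25. It was 0.12 for the 24 genes with CCGGAAG and 0.11 for the 33 without. These are descriptions of annotated starts, with no test.

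The genes around the ribosomal proteins were looked at in lists taken from what is known of ribosome production and of tract-bearing mRNAs. The further ribosomal proteins Fau and Gnb2l1 (the symbol in the files for RACK1) were each higher in control replicate 1 than in control replicate 2. Gnb2l1 was at 299 and 302 CPM in stressed libraries against 311 and 204 CPM in control libraries, and Fau at 58.3 and 56.8 CPM in stressed libraries against 61.9 and 44.7 CPM in control libraries. In both genes the stressed libraries lay between the controls, and neither was called. Of 8 paralogs in the files, 4 passed the filter with 0 calls (all genes, 0% by edgeR and 4.4% by DESeq2). Rpl10l and Rpl39l had 0 counts in all 4 libraries. A count of 0 allows up to 0.253 to 0.323 CPM, as 3 counts of a library's total, for counting error only.

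Elongation factors and other mRNAs with a 5′ pyrimidine tract, 15 genes, showed a like difference between the controls. All 15 were higher in control replicate 1 than in control replicate 2, with a median difference of 0.43 log2 units, and 13 were higher in stressed cells by value with a median of 0.18 and 0 calls by edgeR or DESeq2. Eef1a1, which brings aminoacyl-tRNA to the ribosome, was at 1570 and 1356 CPM in stressed libraries against 1596 and 1200 CPM in control libraries. Npm1, a nucleolar chaperone in the list, was at 284 and 236 CPM in stressed libraries against 209 and 153 CPM in control libraries, a log2 fold change of 0.53 ± 0.23 (SE), to which edgeR gave an adjusted p of 0.41. Eif4b, an initiation factor, was at 260 and 244 CPM in stressed libraries against 196 and 196 CPM in control libraries. The groups did not overlap for Npm1 and Eif4b, and in 7 of the 15 both stressed libraries lay above both controls, where 21.8% of all genes tested did.

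Ribosome biogenesis factors, which process and assemble the subunits but are not part of them, lay above both controls in most cases, by value. Of 36, 33 were higher by value and the median fold change was 0.40 on the log2 scale; in 25 of them both stressed libraries lay above both controls, against 21.8% of all genes tested. The edgeR test called 0 of them, with 11 at an unadjusted p below 0.05, all on the higher side (all genes, 12.8% in either direction and 5.17% higher), and limma-voom called 0% of all genes. By DESeq2, 4 of the 36 rose, where 1.73% of all genes tested rose. Ddx21, a nucleolar helicase, was at 72.5 and 93.9 CPM in stressed libraries against 40.3 and 37.0 CPM in control libraries (DESeq2 adjusted p = 0.0028). Ncl, which encodes nucleolin, was at 676 and 648 CPM in stressed libraries against 433 and 440 CPM in control libraries (DESeq2 adjusted p = 0.027). The controls were close in both genes and the stressed libraries well above them. Nop2, an rRNA methyltransferase, was at 99.2 and 156 CPM in stressed libraries against 55.1 and 74.1 CPM in control libraries (DESeq2 adjusted p = 0.037). Bop1, of the PeBoW complex, was at 149 and 206 CPM in stressed libraries against 98.5 and 107 CPM in control libraries (DESeq2 adjusted p = 0.041). In all 4 genes the groups did not overlap. The calls changed with the libraries and the filter. Each fit with a library left out had 1 library in that group, so its spread came from the other group alone. DESeq2 called 1 factor (Ddx21) higher without control replicate 1, where it called 2.09% of all genes higher. It called 4 (Bop1, Ddx21, Nop2 and Rrp12) without control replicate 2, against 2.51% of all genes. It called 0 without either of the stressed replicates, against 0.296% of all genes without stressed replicate 1 and 0.103% without stressed replicate 2. With the replicate number as a block DESeq2 called 2 factors higher, Ddx21 and Nop2, against 1.47% of all genes. With no low-count filter edgeR called 4 higher, Bop1, Ddx21, Nop2 and Rrp12, against 1.35% of all genes, and without control replicate 1 it called Ddx21, against 2.2% of all genes. In these factors control replicate 1 was above control replicate 2 in 18 of 36, with a median difference of 0.0021 log2 units, and leaving out control replicate 1 gave a median fold change of 0.41 and leaving out control replicate 2 gave 0.34. Both stressed libraries lay below both controls in 10 of 12 keratinocyte markers (all genes, 22.9%). They lay above both in 6 of 8 melanocyte markers (all genes, 21.8%). The part of either cell type in the values of the biogenesis factors was not tested. Nor was the difference between the biogenesis factors and the ribosomal proteins.

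RNA polymerase I and its factors, which make the ribosomal RNA precursor, had 12 of 15 higher by value with a median of 0.11. There were 0 calls among them by edgeR (all genes, 0%) or DESeq2 (all genes, 4.4%). Polr1a, the largest subunit, was at 63.7 and 94.4 CPM in stressed libraries against 39.3 and 66.0 CPM in control libraries, so the groups overlapped. Polr1e was at 22.4 and 21.3 CPM in stressed libraries against 15.0 and 14.3 CPM in control libraries, without overlap and without a call. Among 20 regulators of tract-bearing mRNAs and of S6, 16 were higher by value with a median of 0.26. These too had 0 calls by edgeR (all genes, 0%) or DESeq2 (all genes, 4.4%). Both stressed libraries lay above both controls in 10 of the 20 (all genes, 21.8%) and below both in 3 (all genes, 22.9%). Larp1, which binds the pyrimidine tract and holds these mRNAs untranslated, was at 199.9 and 230.1 CPM in stressed libraries against 139.7 and 153 CPM in control libraries, a log2 fold change of 0.56 ± 0.18 (SE), to which edgeR gave an adjusted p of 0.29. Akt1, which signals to mTOR, was at 417 and 534 CPM in stressed libraries against 323 and 339 CPM in control libraries. Both genes separated the groups by value and neither was called. Translation and phosphorylation of S6 are not measured by mRNA counts.

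**Figure D5:**
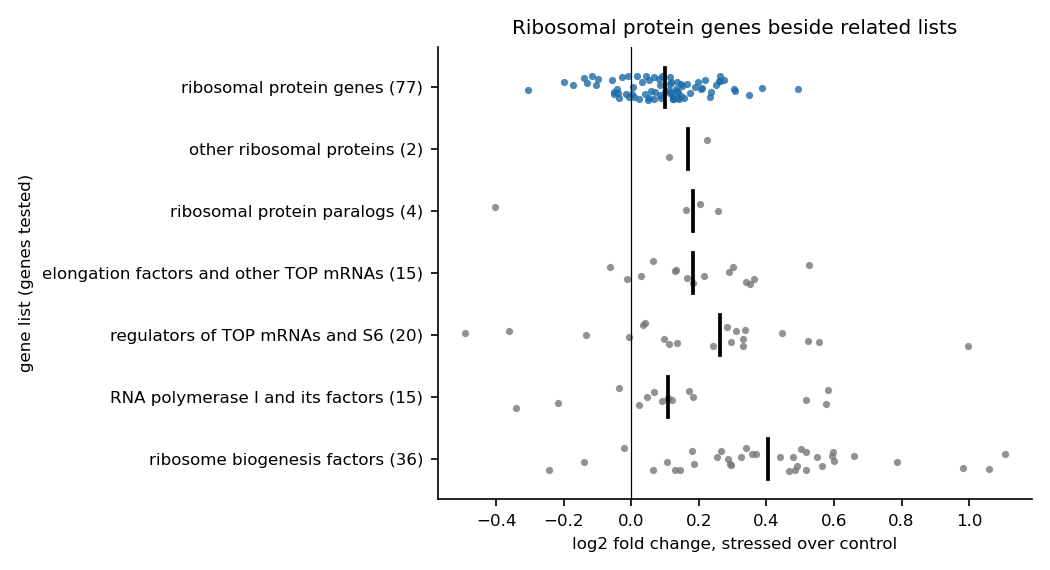
Log2 fold change of each tested gene, stressed over control, for the 77 ribosomal protein genes and 6 related lists, with a bar at each list's median. The ribosomal protein genes cluster near 0 with a median of 0.10, and the 36 ribosome biogenesis factors have a median of 0.40.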

How the data were processed

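RNA-seq was measured in 4 libraries, 2 stressed and 2 control. The deposited values are read counts per gene, which the authors made with featureCounts 1.6.1 at a minimum mapping quality of 30 against an mm10 annotation, without strand or paired-end options, per the file headers. Trim Galore 0.4.1, STAR 2.5.3 and DESeq2 1.22.2 are named, without their role, in the submitters' processing notes. Counting without strand means that reads of overlapping antisense genes cannot be told apart. In R 4.3.3, edgeR 4.0.16 kept 13348 of 27933 genes by filterByExpr (minimum count 10), scaled by TMM and compared the groups by the two-sided quasi-likelihood F-test, adjusted over all genes, with a call at an adjusted p below 0.05. The SE is the absolute log2 fold change over the square root of F. DESeq2 1.42.0 and limma-voom (limma 3.58.1) were alternative tools, beside other scalings and filters, a replicate block and each library left out. The scripts were tested on simulated data. The files' columns hold 1 library each, with 9273652 to 11854280 counts, and limits from counts cover counting error only, since the reads carry no molecular identifiers.

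Named members were the 5 highest and 5 lowest fold changes among those averaging at least 10 CPM, the 3 highest and 3 lowest levels per kilobase, 21 genes of known roles whatever their result, and, of each related list, the called genes or else the 2 largest changes. Other genes named for a count were chosen after their values were seen. The members and lists were chosen with earlier results of these data known. Some genes that the rule names are not reported here by name and are left out of the plots that name genes; sums, medians and counts over the 77 genes include them where they are members.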

Additional observations from a re-analysis of the deposited data

How the results depend on the processing

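The 0 calls among the 77 genes held for edgeR and for DESeq2 under every alternative run. The median log2 fold change kept its sign under the other scalings, filters and tools, but leaving out 1 library moved it from 0.10 to between -0.13 (without control replicate 2) and 0.37 (without control replicate 1), for the large subunit between -0.098 and 0.40, and for the small subunit between -0.16 and 0.34; the cause was not tested. Of the 32 named genes, the number that took the other sign was 11 when control replicate 1 was left out, 12 for control replicate 2, 1 for stressed replicate 1 and 6 for stressed replicate 2, and none was called. For the genes that took the other sign, the lowest values, all without control replicate 2, and highest values, all without control replicate 1, were -0.49 and 0.18 for Rps12, -0.49 and 0.24 for Rpl13a, -0.31 and 0.075 for Rpl30, -0.42 and 0.25 for Rps20, -0.25 and 0.53 for Rplp0, -0.25 and 0.22 for Rplp1, -0.39 and 0.27 for Rplp2, -0.16 and 0.16 for Rpl3, -0.022 and 0.40 for Rpl4, -0.21 and 0.42 for Rpl5, -0.070 and 0.37 for Rpl10, -0.064 and 0.42 for Rpl38, -0.048 and 0.19 for Rpl41, -0.045 and 0.41 for Rpsa, -0.10 and 0.41 for Rps2, -0.065 and 0.39 for Rps3, -0.31 and 0.33 for Rps4x, -0.031 and 0.37 for Rps6, -0.0093 and 0.51 for Rps14, -0.29 and 0.25 for Rps19, -0.33 and 0.29 for Rps26, -0.082 and 0.20 for Rps27a, and -0.38 and 0.39 for Rps15a. Leaving out control replicate 2 and then control replicate 1 gave fold changes of -0.52 and -0.04 for Rpl22, 0.17 and 0.65 for Rpl23a, and 0.022 and 0.30 for Rpl11, with no change of sign. With limma-voom, Rps15a was at 0.017 and Rps4x at 0.0059, both with the other sign. The labels do not say that a replicate number marks a shared animal or day, and the alignments of stressed replicates 1 and 2 are numbered 2 and 3 in the file headers; deviations from the group means correlated at 0.17 between same-numbered samples. With the replicate number as a block, the median was 0.12 with 0 calls, and Rps4x was at 0.00094. Among the ribosome biogenesis factors the calls changed with the filter, the block and the libraries left out, as given above. The median SE of the 77 fold changes was 0.22 log2 units, with 2 libraries a group.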
